A study of Mus musculus with 12 samples.

Results

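The nuclear-encoded subunits of respiratory complexes II, III, IV and V, with the electron carrier cytochrome c, were followed in primary mouse embryonic fibroblasts with and without HtrA2 and with and without rotenone. The members were all probe sets whose platform annotation gave exactly 1 gene symbol that is Sdha, Sdhb, Sdhc, Sdhd, Cyc1 or Cycs, or that begins with Uqcr, Cox4, Cox5, Cox6, Cox7, Cox8 or Atp5. This rule found 86 of the 22626 probe sets tested and 47 of 12393 genes, namely 4 of complex II, 9 of complex III, cytochrome c, 16 of complex IV and 17 of complex V. For every gene the probe set that was brightest on average over the 12 arrays was used, and no difference between groups entered the choice. The arrays form 4 groups of 3, which are HtrA2 KO cells given 1 µM rotenone, HtrA2 KO cells given vehicle, WT cells given 1 µM rotenone and WT cells given vehicle, each for 4 h. All cells were primary fibroblasts from KO or WT mice, used at passage 4 and grown in the same serum-containing medium. The labels give neither the mouse strain nor the age or number of the embryos, and do not say whether the replicates were separate cultures. Each p-value is accordingly a measure of how these 12 samples scatter, and part of that scatter may be technical.

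Complex II oxidises succinate and feeds the electrons to ubiquinone, complex III passes them on to cytochrome c, complex IV hands them to oxygen, and complex V, the ATP synthase, uses the proton gradient so made to build ATP. Rotenone blocks complex I, the main entry point for electrons from NADH, and leaves the entry through complex II open. HtrA2 (Omi) is a serine protease of the space between the mitochondrial membranes. Several complex IV subunits, and the c subunit of complex V, are encoded by alternative genes. In complex IV, fibroblasts use chiefly the forms found throughout the body, whereas the others are known from muscle, lung or testis.

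Htra2 itself averaged 7.77 ± 0.09 (SD, n = 3) on the log2 scale in KO rotenone cells and 7.67 ± 0.17 in KO vehicle cells, against 9.08 ± 0.06 in WT rotenone cells and 9.06 ± 0.24 in WT vehicle cells. The genotype entry of the WT rotenone arrays reads knockout, while their titles and sources read wild type, and their Htra2 levels lie with those of the WT vehicle arrays. All 12 fibroblast markers examined were above the 40th percentile of the mean levels (7.01), as were 3 of 14 muscle markers (Acta1, Actc1 and Des), 0 of 3 brown fat, 3 of 6 leukocyte and 1 of 5 germ cell markers. Among the members, 43 of 47 lay above that level, and Cox4i2, Cox7a1, Cox7c and Cox8b lay below it. The median member had a within-group SD of 0.156, beside 0.154 for all genes. In bulk samples, fewer cells of a type and less RNA per cell cannot be told apart. Array WT rotenone replicate 3 stood apart in the members and over all genes, as described below, so most differences that use it are followed by their values without it. Those come from a fit of the other 11 arrays with the replicate number as a block, called the 11-array fit here. With all 12 arrays the block leaves each difference as it is and alters only its error, whereas in the 11-array fit it also moves the differences.

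None of the 47 members passed the threshold (adjusted p of 0.05, limma with Benjamini-Hochberg adjustment over all 22626 probe sets) in any of 7 comparisons. The share of all probe sets that passed was 0.00442% for KO against WT in rotenone, 0.00442% for KO against WT in vehicle and 0.00884% for the mean of the 2 genotype differences. It was 0.00884% for rotenone against vehicle in KO cells, 0.0133% for the same in WT cells, 0.217% for the mean of the 2 rotenone differences and 0% for the interaction, which is the rotenone difference in KO cells minus that in WT cells. When the replicate number was fitted as a block, the shares were 0.0398%, 0.0177%, 0.552%, 0.301%, 0.628%, 2.46% and 0% in the same order, and again no member passed. The lowest adjusted p of a member was 0.504 without the block (Atp5k, mean rotenone difference) and 0.148 with it (Atp5md, rotenone in WT cells). For the mean rotenone difference the 95% interval of every member lay within 1.5-fold with the block, and that of 46 of 47 did so without it, Cox6b2 being the exception. Without the block the number within 1.5-fold was 46 for the mean genotype difference, 46 for KO against WT in vehicle, 44 for KO against WT in rotenone, 45 for rotenone in KO cells, 41 for rotenone in WT cells and 31 for the interaction. With the block these numbers were 47, 47, 45, 47, 45 and 38, and all 47 lay within it in each comparison of the 11-array fit. These intervals are for single genes and are not adjusted for the number of genes.

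With an unadjusted limma p under 0.05 as the mark, and no block, the counts were small in each comparison. For KO against WT in rotenone, 5 members were higher (10.6% of members, against 2.94% of all probe sets), namely Uqcrb, Uqcrh, Atp5j2, Atp5k and Atp5md, and 1 was lower (2.13% against 2.63%), namely Sdha. For rotenone against vehicle in WT cells, 4 were lower (8.51% against 1.84%), namely Uqcrh, Cox6b1, Atp5k and Atp5md, and 0 were higher (against 2.52%). The same 4 were lower in the mean rotenone difference (8.51% against 3.54%), and 0 were higher (against 4.36%). In KO cells 0 members passed this mark for rotenone in either direction (against 1.77% higher and 1.90% lower). In vehicle 0 members were higher in KO cells (against 0.592%) and 1, Cox7c, was lower (2.13% against 0.446%). In the mean genotype difference 0 were higher (against 3.37%) and 1, Sdha, was lower (2.13% against 2.63%). In the interaction 1, Atp5md, was higher (2.13% against 0.248%) and 0 were lower (against 0.115%). The first 2 of these comparisons share the WT rotenone arrays. The block raised the number lower for rotenone in WT cells to 7 (14.9% against 4.18%). Counts also rose with the block for KO against WT in rotenone, the mean rotenone difference and the mean genotype difference. They stayed the same in the remaining comparisons.

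With WT rotenone replicate 3 left out, the counts were read from the 11-array fit and from a fit of the same arrays without the block. For KO against WT in rotenone, 0 members were higher in the 11-array fit (against 4.87% of all probe sets) and 3 were lower (6.38% against 6.20%), namely Sdha, Uqcrc2 and Atp5g1. Without the block 0 were higher (against 1.86%) and Sdha was lower (2.13% against 2.66%). For rotenone in WT cells, Atp5k and Atp5md were lower in the 11-array fit (4.26% against 4.42%) and 0 members were higher (against 4.66%). Without the block Uqcrh was lower as well (6.38% against 2.36%), and again 0 were higher (against 3.31%). In the mean rotenone difference Uqcrh, Atp5k and Atp5md were lower in the 11-array fit (6.38% against 8.12%) and 0 were higher (against 8.27%). The same 3 were lower without the block (6.38% against 4.55%), and Cox8b was higher (2.13% against 5.93%). In the mean genotype difference Sdha and Atp5g1 were lower in the 11-array fit (4.26% against 7.29%) and Cox8c was higher (2.13% against 6.42%). Without the block Sdha alone was lower (2.13% against 3.00%) and 0 were higher (against 2.58%). In the interaction Cox7c was higher in the 11-array fit (2.13% against 0.734%) and 0 were lower (against 0.703%), while without the block 0 were higher (against 0.177%) and 0 lower (against 0.248%). Atp5md, the member named for the interaction with all arrays, did not reach the mark in either of these fits.

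The groups did not overlap for few members. In rotenone, all KO arrays read above all WT arrays for 8 members (17.0% of members, against 7.92% of all probe sets) and below them for Sdha alone (2.13% against 3.80%). In vehicle this held upward for Cox7a2l (2.13% against 2.15%) and downward for Sdha and Cox7c (4.26% against 1.79%). All rotenone arrays read below all vehicle arrays for 3 members in WT cells (6.38% against 2.87%), which were Uqcrh, Atp5k and Atp5md, and for Atp5h in KO cells (2.13% against 4.06%). For no member did all rotenone arrays read above all vehicle arrays, in KO cells (against 7.19% of all probe sets) or in WT cells (against 4.47%). Without WT rotenone replicate 3, which leaves 2 arrays in its group, KO lay above WT in rotenone for the same 8 members (17.0% against 12.0%) and below it for Sdha, Atp5g1 and Atp5d (6.38% against 9.12%). In WT cells, rotenone then lay below vehicle for the same 3 members (6.38% against 7.98%) and above it for Cox7a2l and Cox8b (4.26% against 11.6%).

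Promoter windows are shown for the members picked by the rule for named genes whose unadjusted p was under 0.05 for the mean rotenone or genotype difference (Sdha, Uqcrh, Cox6b1 and Atp5k), and for Atp5md, which was chosen after its values were seen. Each window holds the 250 bases before the RefSeq start of the gene (assembly GRCm38.p6), read 5′ to 3′ on the strand of the gene. Capitals mark matches, on either strand, to 3 motifs of factors known to act on genes of oxidative phosphorylation, which were GCGCA followed by any base and GCGC for nuclear respiratory factor NRF1, CCGGAAG for the ETS family to which GABP belongs and AAGATGGCG for YY1. The last 3 letters of the ETS motif are the first 3 of the YY1 motif, so that matches to these can overlap. All 5 genes lie on the minus strand, Sdha at chr13:74350241-74350490, Uqcrh at chr4:116075071-116075320, Cox6b1 at chr7:30626115-30626364, Atp5k at chr5:108434400-108434649 and Atp5md at chr19:47090648-47090897.
Sdha: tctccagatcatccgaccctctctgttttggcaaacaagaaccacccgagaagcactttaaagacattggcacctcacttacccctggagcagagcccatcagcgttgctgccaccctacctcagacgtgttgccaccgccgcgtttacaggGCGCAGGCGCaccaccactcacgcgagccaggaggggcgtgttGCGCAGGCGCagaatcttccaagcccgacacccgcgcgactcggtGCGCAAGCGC
Uqcrh: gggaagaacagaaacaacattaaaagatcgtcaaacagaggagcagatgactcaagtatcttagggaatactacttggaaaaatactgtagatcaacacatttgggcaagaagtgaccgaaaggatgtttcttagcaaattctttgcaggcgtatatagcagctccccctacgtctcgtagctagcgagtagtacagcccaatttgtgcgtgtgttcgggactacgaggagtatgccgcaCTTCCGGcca
Cox6b1: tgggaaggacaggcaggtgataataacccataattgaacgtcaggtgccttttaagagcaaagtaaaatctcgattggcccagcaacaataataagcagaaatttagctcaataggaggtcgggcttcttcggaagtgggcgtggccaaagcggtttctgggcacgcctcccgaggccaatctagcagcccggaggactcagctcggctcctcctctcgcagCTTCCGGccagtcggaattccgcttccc
Atp5k: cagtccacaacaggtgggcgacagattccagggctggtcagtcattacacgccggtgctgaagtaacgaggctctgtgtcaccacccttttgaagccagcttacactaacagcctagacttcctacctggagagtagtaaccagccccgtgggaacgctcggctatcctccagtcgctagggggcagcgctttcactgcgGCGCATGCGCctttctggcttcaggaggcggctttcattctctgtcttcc
Atp5md: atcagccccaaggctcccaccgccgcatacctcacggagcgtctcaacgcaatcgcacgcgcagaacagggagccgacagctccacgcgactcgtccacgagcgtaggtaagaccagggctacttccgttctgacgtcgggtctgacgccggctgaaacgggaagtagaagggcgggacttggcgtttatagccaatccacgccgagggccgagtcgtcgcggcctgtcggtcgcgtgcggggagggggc
The Sdha window held 3 matches to the NRF1 motif and the Atp5k window 1. The Uqcrh and Cox6b1 windows held 1 ETS match each, on the reverse strand, and the Atp5md window held none of the 3 motifs. Windows were given for 38 promoters of 35 members. The NRF1 motif was found in 7 of them (18.4%, against 3.74% of all 32851 promoters in the RefSeq table), the ETS motif in 9 (23.7% against 6.91%) and the YY1 motif in 1, that of Atp5j (2.63% against 0.606%). By complex, an NRF1 match was found in 2 of 3 windows of complex II, 0 of 5 of complex III, 1 of 11 of complex IV and 4 of 18 of complex V, and an ETS match in 1, 2, 2 and 4 of them. These matches describe the letters of the windows only.

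On array WT rotenone replicate 3 the members read below their own means, by a median of 0.26 on the log2 scale (a deviation of -0.26), while the medians on the other 11 arrays lay between -0.06 and 0.12. Over all genes the median deviation on that array was -0.03. Of the 47 members, 28 (59.6%) had their lowest value there, against 16.4% of all genes, and 4 had their highest value there, namely Sdha, Uqcrc1, Atp5a1 and Atp5b (8.51%, against 15.9% of all genes). The further probe sets of the same genes, which were not used otherwise, also read low, with 31 of 39 below their means and a median deviation of -0.27. On this array 35 of 47 members were below their means, beside 6923 of 12393 genes. The root mean square residual of the members in the fit with the block was 0.209 on this array and 0.062 to 0.125 on the others. Over all genes it was 0.146 on this array and 0.079 to 0.113 on the others, so the array stood apart beyond the members as well. Its difference between the 3′ and 5′ control probe sets was -0.13 for Actb, against -0.05 to 0.12 on the other arrays, and 0.02 for Gapdh, against -0.06 to 0.18. The part of RNA quality in the low readings was not tested.

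**Figure D1:**
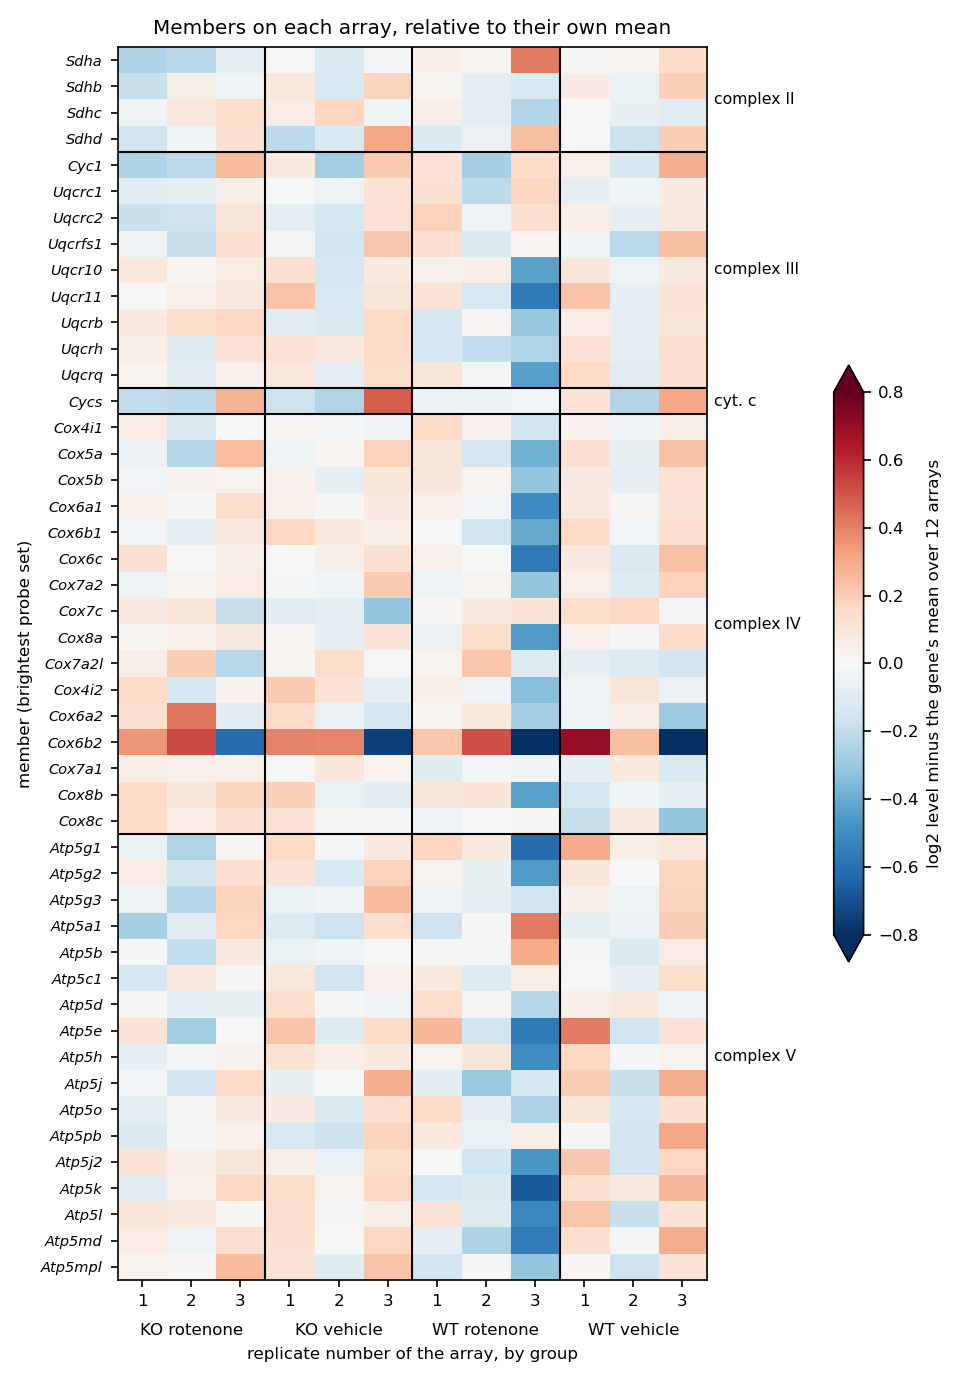
Each row is a member and each column an array, grouped by genotype and treatment, and the colour is the log2 level minus the gene's mean over 12 arrays. The column of WT rotenone replicate 3 is blue (below 0) for 35 of 47 members and red for the other 12, among them Sdha, Sdhd, Atp5a1 and Atp5b, and Cox6b2 is dark blue on all arrays numbered 3. Over all genes, which are not drawn, 6923 of 12393 were below their means on WT rotenone replicate 3.

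The complexes did not read alike on that array. The median deviation was 0.06 for complex II (4 genes), -0.24 for complex III (9), -0.02 for cytochrome c, -0.33 for complex IV (16) and -0.31 for complex V (17). Complex II was split, with Sdha (0.41) and Sdhd (0.24) above their means and Sdhb (-0.12) and Sdhc (-0.23) below. Sdhc had its lowest value there. The other probe sets read 0.38 for Sdha, -0.34 for Sdhc and -0.08 for Sdhd. Within complex III the 4 catalytic and core subunits had a median of 0.14, whereas the 5 small accessory subunits had -0.43, all of them at their lowest. Within complex V the 5 subunits of the F1 head and central stalk had a median of 0.05, the 4 of the peripheral stalk -0.19, the 3 genes of the c ring -0.45 and the 5 small membrane subunits -0.52, the last again all at their lowest. In complex IV the 9 forms found throughout the body had a median of -0.39 and the 6 tissue-restricted forms -0.30. These classes were drawn up with the values known, and 1 array gives no test of their difference. The 34 complex I subunits had a median deviation of -0.37 on the same array, the 74 mitochondrial ribosomal proteins -0.22, the 27 assembly factors -0.22 and the 15 enzymes of the citric acid cycle 0.15. The complex I subunits were taken by symbol alone, as genes beginning with Nduf but not Ndufaf, so that Ndufa4 is counted among them.

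**Figure D2:**
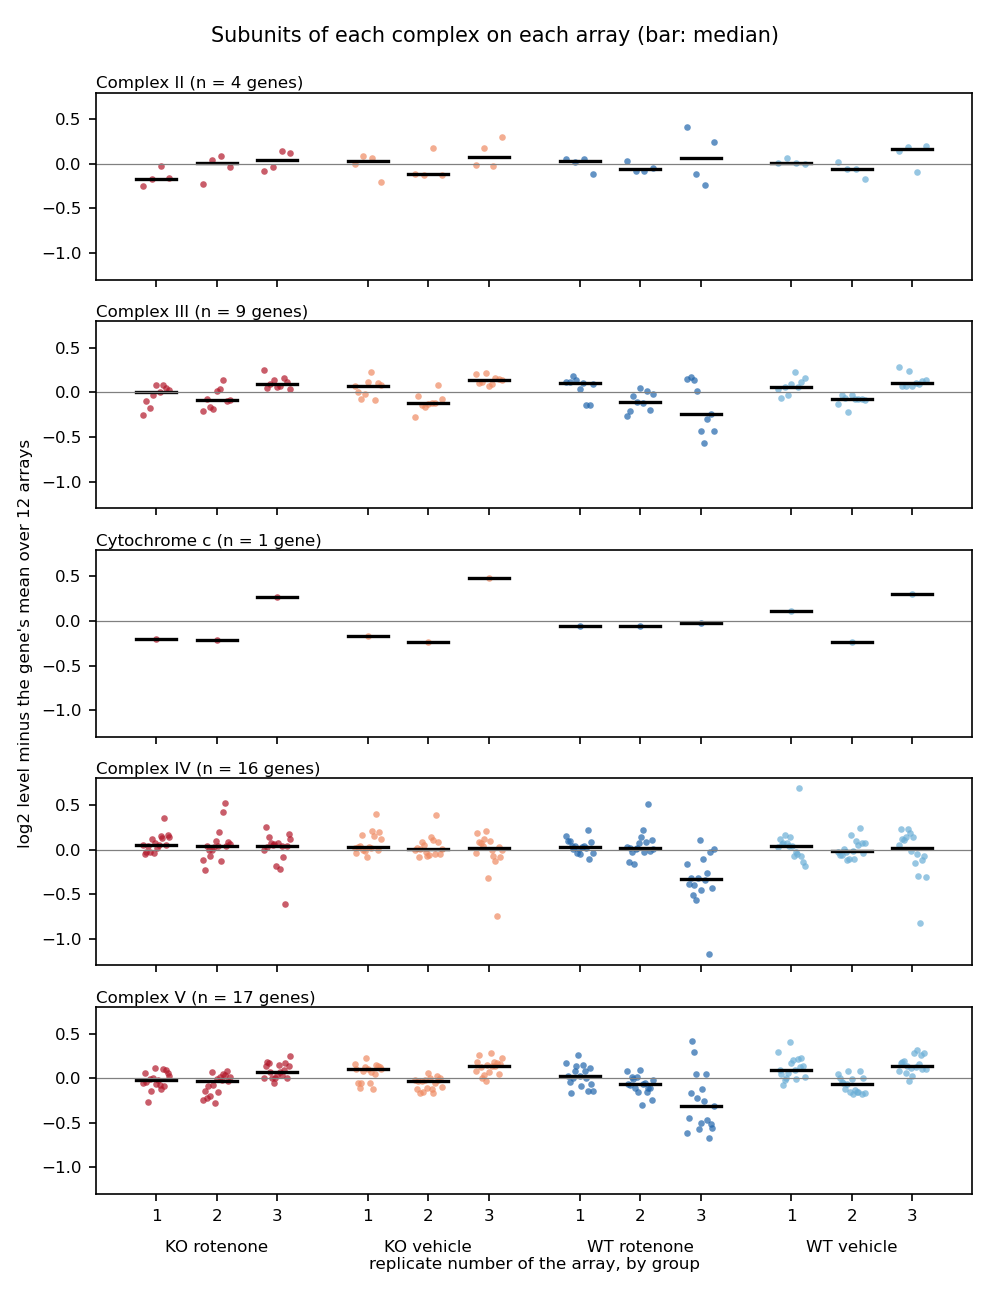
Points are the subunits of a complex on each array, as log2 level minus the gene's mean over 12 arrays, and black bars are their medians. On WT rotenone replicate 3 the medians of complexes III, IV and V lie at -0.24, -0.33 and -0.31, with points of each also above 0. The median of complex II lies at 0.06, with 2 points above 0 and 2 below.

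Complex II consists of the flavoprotein Sdha and the iron-sulfur protein Sdhb, which together oxidise succinate, and of the membrane anchors Sdhc and Sdhd, which hold a haem and the ubiquinone site. Sdha read 10.68, 10.71 and 10.85 on the KO rotenone arrays, 10.93, 10.81 and 10.91 on the KO vehicle arrays, 10.98, 10.96 and 11.34 on the WT rotenone arrays and 10.94, 10.95 and 11.07 on the WT vehicle arrays. All KO arrays lay below all WT arrays in rotenone as well as in vehicle, and the highest value was that of WT rotenone replicate 3. The difference of KO minus WT was -0.35 (95% interval -0.58 to -0.11) in rotenone (unadjusted p = 0.00801, adjusted p = 0.835, limma) and -0.10 in vehicle. Leaving out WT rotenone replicate 3 and using the block gave -0.26 (95% interval -0.46 to -0.06) in rotenone, with an adjusted p of 0.315. KO was below WT in all 6 pairs of arrays with the same replicate number and treatment. The same held for Atp5a1, while KO was above WT in all 6 pairs for Cox7a1 and Atp5mpl. The share of all probe sets with such agreement is not given. The other Sdha probe set gave a mean genotype difference of -0.18, beside -0.22 for the one used here. Sdha is the member with the largest mean genotype difference of complex II, but it did not pass the threshold.

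Among the probe sets used, the iron-sulfur subunit Sdhb had the largest mean rotenone difference of complex II. It read 11.26, 11.48 and 11.40 on the KO rotenone arrays, 11.52, 11.31 and 11.61 on the KO vehicle arrays, 11.45, 11.36 and 11.31 on the WT rotenone arrays and 11.50, 11.38 and 11.63 on the WT vehicle arrays. The rotenone and vehicle arrays overlapped in both genotypes. Its mean rotenone difference was -0.11 (95% interval -0.28 to 0.05), and -0.08 (95% interval -0.23 to 0.08) in the 11-array fit. Sdhc and Sdhd showed mean rotenone differences of -0.02 and 0.0038 and mean genotype differences of 0.13 and -0.03, all with intervals that include 0. In the 11-array fit these were 0.01 and 0.0042 for rotenone and 0.10 and -0.03 for genotype. The other probe sets of Sdhc and Sdhd differed, with mean rotenone differences of -0.11 and 0.20 and mean genotype differences of 0.03 and 0.13. For the other Sdhd probe set the rotenone difference had an adjusted p of 0.504 without the block and 0.197 with it (limma). Sdhd read higher on each of the 4 arrays numbered 3 (11.22 to 11.39) than on each of the other 8 (10.88 to 11.09), in both genotypes and both treatments.

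In complex III, Cyc1 carries the haem of cytochrome c1, Uqcrfs1 is the Rieske iron-sulfur protein, and Uqcrc1 and Uqcrc2 are the large core proteins. The mean rotenone differences of these 4 were -0.07, -0.01, -0.01 and 0.01, and their mean genotype differences -0.06, -0.01, -0.02 and -0.12. The 11-array fit gave -0.05, 0.04, -0.03 and 0.03 for rotenone and -0.09, -0.06, -0.0042 and -0.14 for genotype. None read lowest on WT rotenone replicate 3. Without that array and with the block, KO minus WT in rotenone was -0.22 (95% interval -0.43 to -0.01) for Uqcrc2 (unadjusted p = 0.0433, adjusted p = 0.435, limma), and the other 3 also had negative values, with intervals that include 0.

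The small accessory subunits of complex III are Uqcrb, which lies near the ubiquinone site, Uqcrh, the acidic hinge protein where cytochrome c docks, and Uqcrq, Uqcr10 and Uqcr11, which sit in the membrane part. Uqcrh had the largest mean difference of the complex for rotenone and for genotype. It read 11.36, 11.21 and 11.43 on the KO rotenone arrays, 11.41, 11.39 and 11.46 on the KO vehicle arrays, 11.17, 11.11 and 11.07 on the WT rotenone arrays and 11.43, 11.23 and 11.44 on the WT vehicle arrays. In WT cells all rotenone arrays lay below all vehicle arrays, whereas in KO cells the groups overlapped. The rotenone difference was -0.09 in KO cells and -0.25 (95% interval -0.45 to -0.05) in WT cells (unadjusted p = 0.0164, adjusted p = 1, limma). The interaction was 0.16 (95% interval -0.11 to 0.44), so the difference between genotypes did not pass (adjusted p = 1). Rotenone minus vehicle was negative in all 6 pairs of arrays with the same number and genotype. This also held for Atp5g2, Atp5e and Atp5md, and the share of all probe sets is not given. The difference in WT cells was -0.19 (95% interval -0.39 to 0.01) without WT rotenone replicate 3 and with the block. KO minus WT in rotenone was 0.22 (95% interval 0.02 to 0.41) with all arrays and 0.16 (95% interval -0.04 to 0.36) without that array and with the block.

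Uqcrb was higher in KO than in WT cells in rotenone by 0.27 (unadjusted p = 0.0273, adjusted p = 0.835, limma), and by 0.14 (95% interval -0.08 to 0.36) without WT rotenone replicate 3 and with the block. For Uqcrq, Uqcr10 and Uqcr11 the rotenone difference in WT cells was -0.19, -0.16 and -0.28 with all arrays. Without that 1 array and with the block, these became 0.01, 0.01 and -0.08.

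Cytochrome c, encoded by Cycs, carries electrons from complex III to complex IV and starts caspase activation when it leaves the mitochondrion. Cycs read 11.45, 11.43 and 11.92 on the KO rotenone arrays, 11.48, 11.40 and 12.13 on the KO vehicle arrays, 11.59, 11.59 and 11.62 on the WT rotenone arrays and 11.75, 11.41 and 11.95 on the WT vehicle arrays. In each group the array numbered 3 was above the other 2, though the WT rotenone arrays lay close together (SD 0.02, n = 3). The groups overlapped in each comparison. The mean rotenone difference was -0.09 (95% interval -0.39 to 0.22) and the mean genotype difference -0.02 (95% interval -0.33 to 0.29), and both changed sign under some alternatives, as given with the processing. In the 11-array fit they were -0.01 (95% interval -0.16 to 0.15) and -0.10 (95% interval -0.26 to 0.06). Its other 2 probe sets had mean rotenone differences of -0.07 and -0.04 with all arrays.

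**Figure D3:**
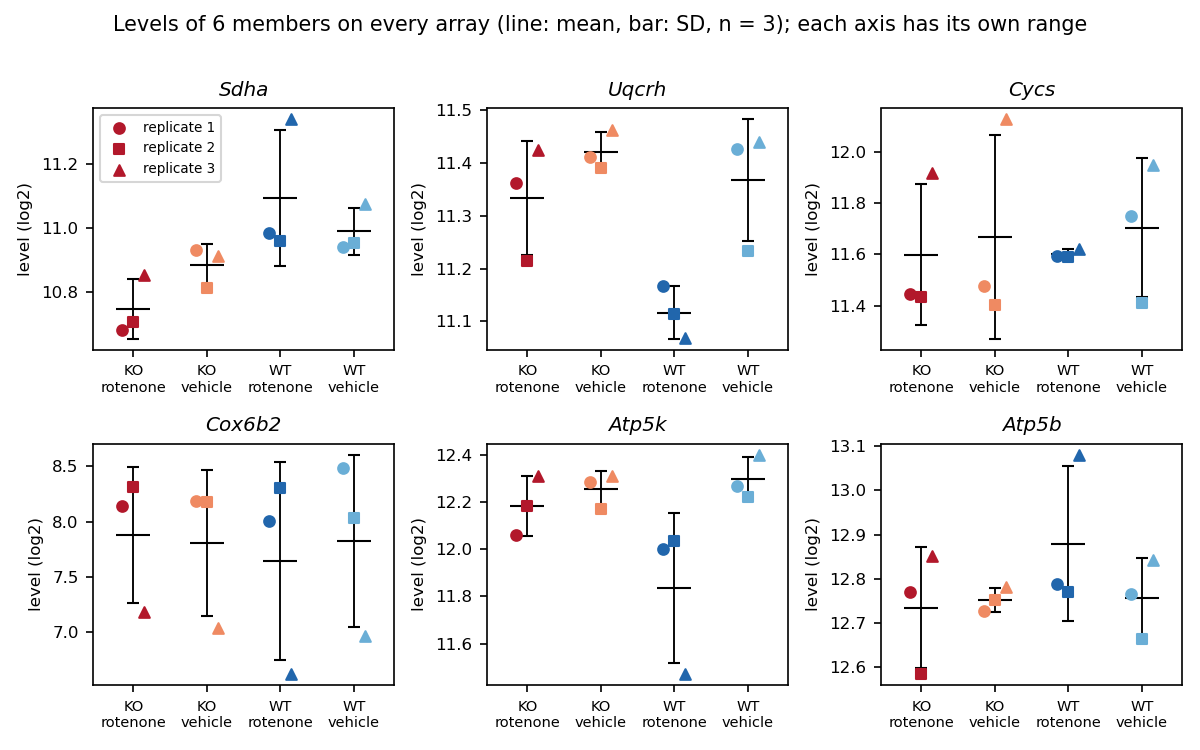
Each panel plots the log2 level of 1 member on all 12 arrays by group, with the mean and SD (n = 3) as line and bar and the replicate number as the symbol, on an axis range of its own. Atp5k has its lowest value (11.47) and Sdha its highest (11.34) on the same array, WT rotenone replicate 3, and Cox6b2 lies lowest on the arrays numbered 3 in all groups.

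Among the complex IV subunits found throughout the body, Cox6b1, which lies on the side facing cytochrome c, had the largest mean rotenone difference. It read 12.40, 12.35 and 12.50 on the KO rotenone arrays, 12.59, 12.50 and 12.47 on the KO vehicle arrays, 12.43, 12.27 and 12.02 on the WT rotenone arrays and 12.58, 12.40 and 12.56 on the WT vehicle arrays. WT rotenone replicate 3 was lowest, and the rotenone and vehicle arrays overlapped in both genotypes. The rotenone difference was -0.10 in KO cells and -0.28 (95% interval -0.51 to -0.04) in WT cells (unadjusted p = 0.0249, adjusted p = 1, limma). Without that array and with the block, the difference in WT cells was -0.16 (95% interval -0.36 to 0.05). Rotenone was below vehicle in 5 of 6 pairs.

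Cox7c, a small membrane subunit, had the largest mean genotype difference of complex IV, and its probe set is one of the dim ones. It read 5.64, 5.66 and 5.38 on the KO rotenone arrays, 5.48, 5.49 and 5.25 on the KO vehicle arrays, 5.57, 5.64 and 5.68 on the WT rotenone arrays and 5.70, 5.73 and 5.55 on the WT vehicle arrays. In vehicle all KO arrays lay below all WT arrays, while in rotenone the groups overlapped. The genotype difference was -0.07 in rotenone (0.03 in the 11-array fit) and -0.25 (95% interval -0.48 to -0.02) in vehicle (unadjusted p = 0.0337, adjusted p = 1, limma). Its other probe set gave a mean genotype difference of -0.07, beside -0.16 for the one used here. Both probe sets lie below the 40th percentile of the mean levels.

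Cox5a and the zinc-binding Cox5b, both peripheral subunits on the matrix side, and the membrane subunit Cox6c had rotenone differences in WT cells of -0.25, -0.11 and -0.24 with all arrays. They were -0.04, 0.05 and -0.0033 without WT rotenone replicate 3 and with the block. In KO cells they were -0.06, -0.00038 and -0.00075. All 3 had their lowest value on WT rotenone replicate 3. The further probe sets of Cox5a had mean rotenone differences of -0.02 and 0.02, beside -0.15 for the one used. Their deviations on WT rotenone replicate 3 were -0.16 and -0.17, beside -0.39.

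The isoform pairs of complex IV were compared by their differences, since the levels of different probe sets cannot be set against each other. Cox4i1, the body-wide form of the large regulatory subunit, read 12.68, 12.51 and 12.62 on the KO rotenone arrays, 12.64, 12.61 and 12.59 on the KO vehicle arrays, 12.78, 12.66 and 12.46 on the WT rotenone arrays and 12.66, 12.59 and 12.67 on the WT vehicle arrays. Cox4i2, the form known from lung and from low oxygen, read 6.97, 6.68 and 6.85 on the KO rotenone arrays, 7.02, 6.92 and 6.74 on the KO vehicle arrays, 6.86, 6.79 and 6.47 on the WT rotenone arrays and 6.78, 6.91 and 6.76 on the WT vehicle arrays. The 4 groups overlapped for both. The mean rotenone differences were -0.01 (95% interval -0.16 to 0.13) for Cox4i1 and -0.09 (95% interval -0.27 to 0.10) for Cox4i2, and 0.03 and -0.05 in the 11-array fit.

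Cox6a1, the body-wide form of a subunit at the dimer interface, read 13.35, 13.30 and 13.45 on the KO rotenone arrays, 13.35, 13.32 and 13.38 on the KO vehicle arrays, 13.35, 13.29 and 12.80 on the WT rotenone arrays and 13.39, 13.32 and 13.42 on the WT vehicle arrays. WT rotenone replicate 3 was lowest, and the groups overlapped. Cox6a2, its heart and skeletal muscle form, read 7.77, 8.06 and 7.56 on the KO rotenone arrays, 7.80, 7.60 and 7.51 on the KO vehicle arrays, 7.66, 7.73 and 7.38 on the WT rotenone arrays and 7.60, 7.70 and 7.35 on the WT vehicle arrays. On the arrays numbered 3 it lay between 7.35 and 7.56, below all others (7.60 to 8.06), and the groups overlapped. The mean rotenone differences were -0.10 (95% interval -0.30 to 0.09) for Cox6a1 and 0.10 (95% interval -0.13 to 0.33) for Cox6a2, against -0.01 and 0.11 in the 11-array fit.

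Cox6b2, the testis form and alternative to Cox6b1, varied most of all 47 members between arrays, over a range of 1.86. It read 8.14, 8.32 and 7.18 on the KO rotenone arrays, 8.19, 8.18 and 7.04 on the KO vehicle arrays, 8.01, 8.31 and 6.62 on the WT rotenone arrays and 8.48, 8.03 and 6.97 on the WT vehicle arrays. In each of the 4 groups the array numbered 3 was lowest, and all 4 lay between 6.62 and 7.18, below the other 8 (8.01 to 8.48). The groups overlapped, and the mean rotenone difference was -0.05 (95% interval -0.83 to 0.72) without the block and -0.05 (95% interval -0.26 to 0.15) with it. The 11-array fit gave 0.01 (95% interval -0.19 to 0.20).

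Cox7a2 is the body-wide form of a small membrane subunit, Cox7a1 its muscle form, and Cox7a2l a relative that joins complexes III and IV in supercomplexes. Cox7a2 read 12.36, 12.43 and 12.46 on the KO rotenone arrays, 12.39, 12.37 and 12.61 on the KO vehicle arrays, 12.37, 12.42 and 12.09 on the WT rotenone arrays and 12.44, 12.30 and 12.58 on the WT vehicle arrays. Cox7a1 read 5.22, 5.22 and 5.21 on the KO rotenone arrays, 5.17, 5.26 and 5.20 on the KO vehicle arrays, 5.07, 5.16 and 5.15 on the WT rotenone arrays and 5.11, 5.25 and 5.06 on the WT vehicle arrays. Cox7a2l read 11.30, 11.45 and 11.03 on the KO rotenone arrays, 11.27, 11.39 and 11.25 on the KO vehicle arrays, 11.28, 11.47 and 11.15 on the WT rotenone arrays and 11.18, 11.15 and 11.10 on the WT vehicle arrays. Cox7a2 was lowest on WT rotenone replicate 3, Cox7a1 ranged over 0.21 and read higher on all KO than on all WT rotenone arrays, and Cox7a2l was higher on all KO than on all WT vehicle arrays, with overlap in rotenone for Cox7a2l. The Cox7a2l genotype difference in vehicle was 0.16 (95% interval -0.09 to 0.42) (adjusted p = 1, limma). For rotenone the mean differences were -0.10 for Cox7a2, -0.0043 for Cox7a1 and 0.06 for Cox7a2l, and in the 11-array fit -0.02, -0.02 and 0.07.

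Cox8a is the body-wide form of another small membrane subunit, with Cox8b as a heart and muscle form and Cox8c as a testis form. Cox8a read 12.79, 12.82 and 12.85 on the KO rotenone arrays, 12.80, 12.71 and 12.88 on the KO vehicle arrays, 12.73, 12.91 and 12.32 on the WT rotenone arrays and 12.81, 12.76 and 12.92 on the WT vehicle arrays. Cox8b read 6.63, 6.56 and 6.65 on the KO rotenone arrays, 6.66, 6.41 and 6.38 on the KO vehicle arrays, 6.56, 6.57 and 6.04 on the WT rotenone arrays and 6.33, 6.43 and 6.39 on the WT vehicle arrays. Cox8c read 9.14, 9.05 and 9.11 on the KO rotenone arrays, 9.11, 9.00 and 8.98 on the KO vehicle arrays, 8.95, 8.99 and 9.00 on the WT rotenone arrays and 8.81, 9.06 and 8.68 on the WT vehicle arrays. Cox8a and Cox8b were lowest on WT rotenone replicate 3, whereas Cox8c was lowest on WT vehicle replicate 3. For Cox8c all KO rotenone arrays lay above all WT rotenone arrays, with a mean genotype difference of 0.15 (95% interval -0.0033 to 0.30), and of 0.17 (95% interval 0.02 to 0.33) in the 11-array fit (unadjusted p = 0.0333, adjusted p = 0.317, limma). Rotenone minus vehicle averaged -0.08 for Cox8a, 0.07 for Cox8b and 0.10 for Cox8c, and 0.02, 0.15 and 0.08 in the 11-array fit. Of the 14 muscle markers, Acta1, Actc1 and Des lay above the 40th percentile. The other muscle markers, among them the myosin genes Myh1, Myh2, Myh4, Myh6 and Myh7, lay below it. Of the germ cell markers only Prm1 lay above it.

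In complex V the F1 part in the matrix makes ATP. Atp5a1 and Atp5b encode its alpha and beta subunits, which hold the nucleotide sites, and Atp5c1, Atp5d and Atp5e encode the gamma, delta and epsilon subunits of the central stalk that turns within it. The mean rotenone differences of Atp5a1, Atp5b and Atp5c1 were 0.03, 0.05 and -0.01, and those of Atp5d and Atp5e -0.07 and -0.21. In the 11-array fit those of the first 3 were -0.01, 0.02 and -0.01 and that of Atp5d -0.03. On WT rotenone replicate 3 Atp5a1 and Atp5b had their highest values, at 13.03 and 13.08, while Atp5d and Atp5e had their lowest, at 11.73 and 9.45. The other 2 probe sets of Atp5a1 also read above their means there, by 0.34 and 0.30, beside 0.42 for the one used. With the block, the mean rotenone difference of Atp5e was -0.21 (95% interval -0.41 to -0.01) with all arrays (unadjusted p = 0.04, adjusted p = 0.304, limma) and -0.10 (95% interval -0.24 to 0.04) without that array.

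The c ring, which rotates in the membrane as protons pass, is built of a protein encoded by Atp5g1, Atp5g2 and Atp5g3, whose products differ in the targeting sequence that is cut off. Atp5g1 read 11.01, 10.82 and 11.07 on the KO rotenone arrays, 11.22, 11.05 and 11.14 on the KO vehicle arrays, 11.23, 11.14 and 10.45 on the WT rotenone arrays and 11.36, 11.11 and 11.15 on the WT vehicle arrays. Atp5g2 read 11.82, 11.61 and 11.89 on the KO rotenone arrays, 11.87, 11.64 and 11.94 on the KO vehicle arrays, 11.79, 11.70 and 11.31 on the WT rotenone arrays and 11.85, 11.77 and 11.94 on the WT vehicle arrays. Atp5g3 read 12.69, 12.50 and 12.90 on the KO rotenone arrays, 12.67, 12.69 and 12.98 on the KO vehicle arrays, 12.68, 12.65 and 12.56 on the WT rotenone arrays and 12.77, 12.68 and 12.90 on the WT vehicle arrays. Atp5g1 and Atp5g2 were lowest on WT rotenone replicate 3, whereas Atp5g3 was lowest on KO rotenone replicate 2, and the groups overlapped for all 3. The mean rotenone differences were -0.22 (95% interval -0.48 to 0.05), -0.15 (95% interval -0.35 to 0.06) and -0.12 (95% interval -0.30 to 0.07), and in the 11-array fit -0.09, -0.05 and -0.06. Without WT rotenone replicate 3 and with the block, KO minus WT in rotenone was -0.23 (95% interval -0.44 to -0.02) for Atp5g1 (unadjusted p = 0.0364, adjusted p = 0.414, limma), against 0.03 (95% interval -0.35 to 0.40) with all arrays.

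The peripheral stalk, which keeps the F1 part from turning along, is formed by Atp5o (the oligomycin sensitivity subunit), Atp5pb (subunit b), Atp5h (subunit d) and Atp5j (the coupling factor subunit). Their mean rotenone differences were -0.06, -0.01, -0.14 and -0.18, and in the 11-array fit 0.02, 0.03, -0.05 and -0.14. For Atp5h all KO rotenone arrays (12.12 to 12.22) lay below all KO vehicle arrays (12.24 to 12.30). With the block, the Atp5j rotenone difference in WT cells was -0.27 (95% interval -0.48 to -0.06) (unadjusted p = 0.0153, adjusted p = 0.345, limma), and -0.20 (95% interval -0.43 to 0.03) without WT rotenone replicate 3.

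The small membrane subunits of complex V are Atp5j2 (subunit f), Atp5k (subunit e), Atp5l (subunit g), Atp5md (also called DAPIT) and Atp5mpl (a small proteolipid), and subunits e and g help the enzyme form dimers at the edges of the cristae. Atp5k had the largest mean rotenone difference of complex V. It read 12.06, 12.18 and 12.31 on the KO rotenone arrays, 12.29, 12.17 and 12.31 on the KO vehicle arrays, 12.00, 12.04 and 11.47 on the WT rotenone arrays and 12.27, 12.22 and 12.40 on the WT vehicle arrays. In WT cells all rotenone arrays lay below all vehicle arrays, with WT rotenone replicate 3 far below the rest, and in KO cells the groups overlapped. The rotenone difference was -0.07 (95% interval -0.38 to 0.23) in KO cells and -0.46 (95% interval -0.77 to -0.16) in WT cells (unadjusted p = 0.00624, adjusted p = 0.771, limma). Without that array and with the block, the difference in WT cells was -0.23 (95% interval -0.44 to -0.02) and the adjusted p 0.458. KO minus WT in rotenone was 0.35 (95% interval 0.04 to 0.65) with all arrays and 0.12 (95% interval -0.09 to 0.33) without it and with the block. Its other 2 probe sets had mean rotenone differences of -0.21 and -0.29, beside -0.27 for the one used.

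Atp5mpl had the largest mean genotype difference of complex V. It read 10.89, 10.87 and 11.11 on the KO rotenone arrays, 10.96, 10.76 and 11.09 on the KO vehicle arrays, 10.71, 10.84 and 10.55 on the WT rotenone arrays and 10.88, 10.69 and 10.96 on the WT vehicle arrays. In rotenone all KO arrays lay above all WT arrays, and in vehicle the groups overlapped. The mean genotype difference was 0.17 (95% interval -0.01 to 0.36), and 0.10 (95% interval -0.04 to 0.25) without WT rotenone replicate 3 and with the block.

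Atp5md was described further after its values were seen, because it had the lowest adjusted p of any member with the block. It read 10.32, 10.22 and 10.39 on the KO rotenone arrays, 10.38, 10.26 and 10.42 on the KO vehicle arrays, 10.19, 10.01 and 9.69 on the WT rotenone arrays and 10.39, 10.26 and 10.54 on the WT vehicle arrays. In WT cells all rotenone arrays lay below all vehicle arrays, and in KO cells they overlapped. The rotenone difference was -0.04 in KO cells and -0.43 (95% interval -0.71 to -0.16) in WT cells, and the interaction 0.39 (95% interval 0.01 to 0.78) (unadjusted p = 0.0475, adjusted p = 1, limma). Without WT rotenone replicate 3 and with the block, the difference in WT cells was -0.25 (95% interval -0.45 to -0.05) and the interaction 0.21 (95% interval -0.06 to 0.47). Rotenone minus vehicle was negative in all 6 pairs of arrays, at -0.06, -0.04 and -0.03 in KO cells and at -0.20, -0.25 and -0.85 in WT cells. Uqcrh, Atp5g2 and Atp5e shared this sign in all 6 pairs.

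For Atp5j2 and Atp5l the rotenone difference in WT cells was -0.28 and -0.22 with all arrays, and -0.12 and -0.04 without WT rotenone replicate 3 and with the block. KO minus WT in rotenone was 0.29 (95% interval 0.01 to 0.57) for Atp5j2 with all arrays (unadjusted p = 0.0455, adjusted p = 0.835, limma) and 0.13 (95% interval -0.09 to 0.35) in the other fit.

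**Figure D4:**
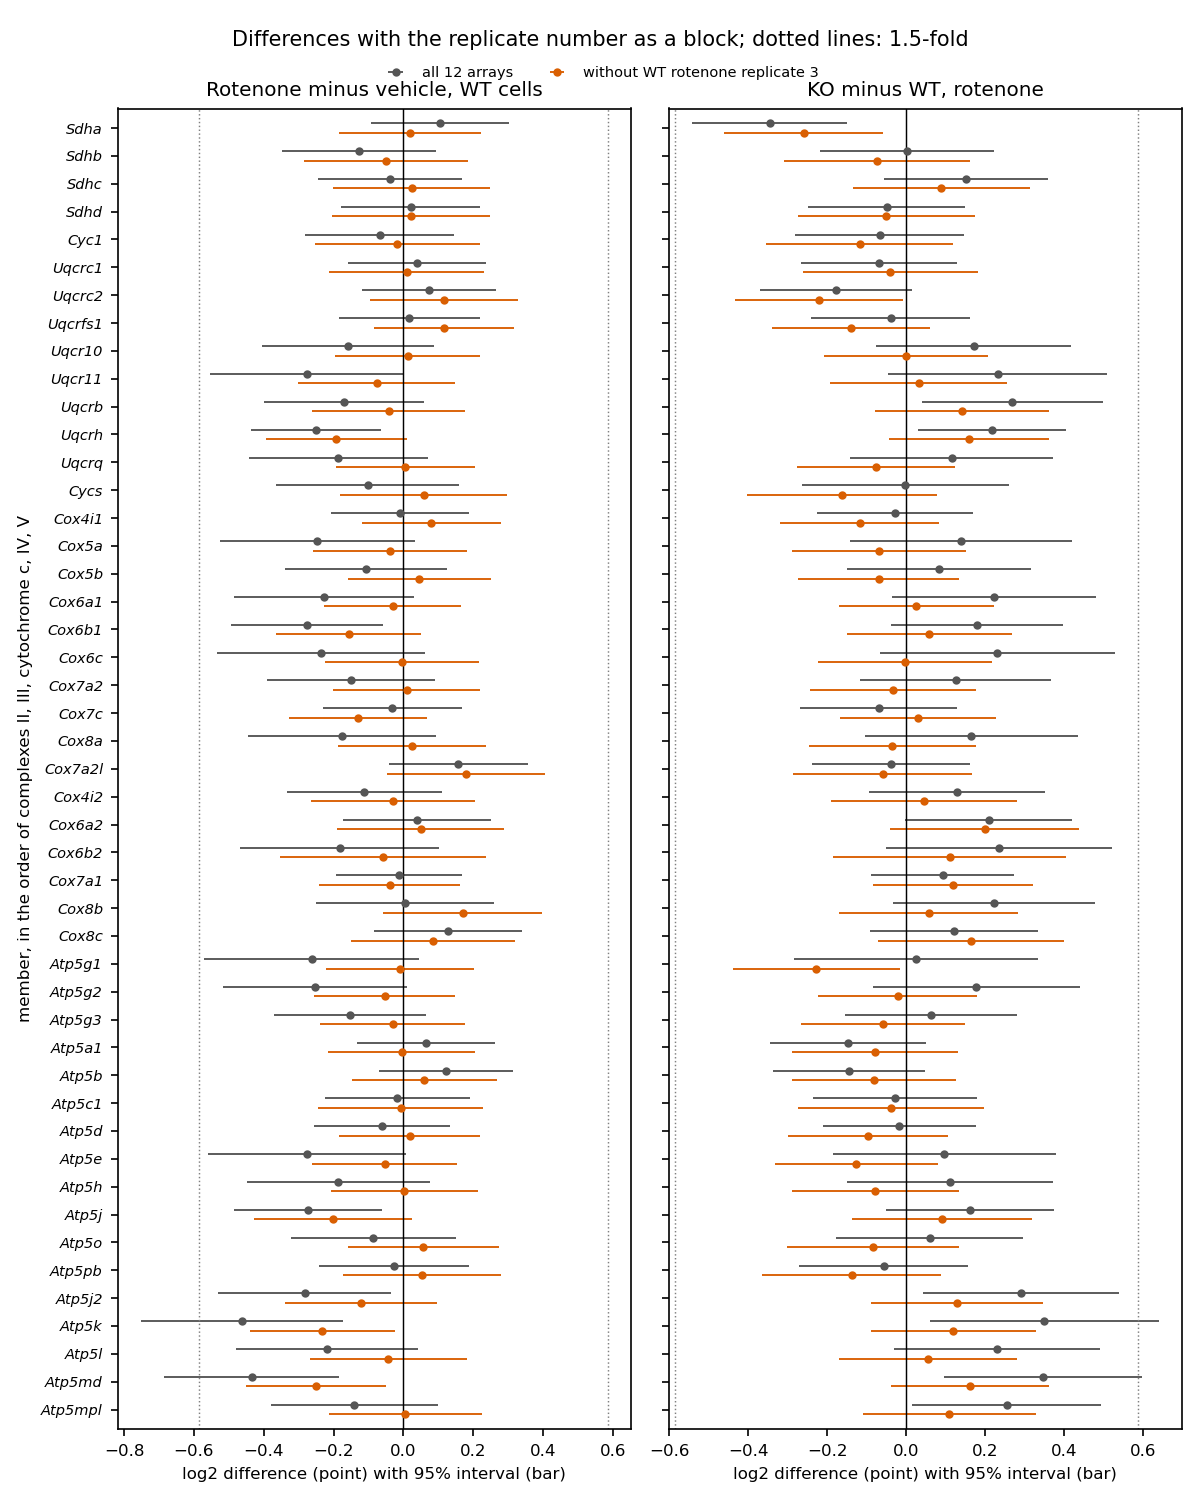
Points are log2 differences and bars their 95% intervals for all 47 members, with the replicate number as a block, for rotenone minus vehicle in WT cells (left) and KO minus WT in rotenone (right). Grey uses all 12 arrays and orange leaves out WT rotenone replicate 3, dotted lines mark 1.5-fold, and without that array all 47 intervals lie within 1.5-fold in both comparisons.

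The complexes were set side by side by their median differences. For rotenone in KO cells the medians were -0.06 for complex II, -0.05 for complex III, -0.07 for cytochrome c, 0.0020 for complex IV and -0.04 for complex V, beside 0.03 for all genes. For rotenone in WT cells with all arrays they were -0.01, -0.16, -0.10, -0.11 and -0.19 in the same order, beside 0.02 for all genes. Without WT rotenone replicate 3 and with the block, they were 0.02, 0.01, 0.06, 0.0031 and -0.01, and without the array and without the block -0.05, -0.03, -0.11, -0.0029 and -0.07. The sign was negative in WT cells for 36 of 47 members with all arrays, for 24 of 47 in the 11-array fit and for 32 of 47 without that array and without the block. These counts stand without the share of all genes that were negative, so they are not read as a difference from it. No test of the medians was made.

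In vehicle the medians of KO minus WT were -0.02 for complex II, -0.02 for complex III, -0.04 for cytochrome c, -3.1e-05 for complex IV and -0.03 for complex V, beside 0.01 for all genes. In rotenone with all arrays they were -0.02, 0.11, -0.0033, 0.13 and 0.10, and without WT rotenone replicate 3 and with the block they were -0.06, -0.04, -0.16, 0.03 and -0.06. Without the array and without the block they were 0.01, 0.0072, 0.0070, 0.02 and 0.02. The spread of the medians across complexes in rotenone therefore depended on the fit as well as on the array. Between single pairs of arrays, the median of KO minus WT in rotenone over all members was -0.02 and 0.01 for the arrays numbered 1 and 2 and 0.36 for those numbered 3. For rotenone minus vehicle in WT cells the pairs gave -0.06, 0.03 and -0.35. In KO cells they gave -0.05, 0.01 and -0.03.

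The 5 small membrane subunits of complex V were all higher in KO than in WT cells in rotenone, with a median of 0.29 over all arrays and 0.12 without WT rotenone replicate 3 and with the block, beside 0.02 for all genes in both fits. The 6 tissue-restricted forms of complex IV had medians of 0.17 and 0.11, with 6 of 6 positive in these fits and 5 of 6 without that array and without the block. In vehicle the medians of these classes were -0.03 and 0.08, and no member of either passed the threshold. Since the classes were drawn up with the values known, these counts are a description.

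A few members separated by replicate number. The 4 arrays numbered 3 lay entirely above the other 8 for Sdhd (by 0.32 on average), Cyc1 (0.34) and Atp5a1 (0.34), which is 6.38% of members against 6.57% of all probe sets. They lay entirely below them for Cox6a2 (-0.29) and Cox6b2 (-1.25), which is 4.26% against 4.56%. These shares are near those of all probe sets. Without WT rotenone replicate 3 these averages were 0.31, 0.36, 0.28, -0.27 and -1.14. Cycs was higher on the arrays numbered 3 by 0.39, and by 0.49 without that array, with overlap only through that array. Without it, the arrays numbered 3 lay above the rest for 11 members (23.4% against 9.09%) and below them for the same 2 (4.26% against 7.57%). With WT rotenone replicate 3 included, the median difference over all members was -0.03, beside -0.04 over all genes. These medians do not describe the arrays numbered 3 without it. What the number stands for is not stated in the labels, so these values are given as a description.

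None of the 34 complex I subunits, 27 assembly factors of complexes II to V, 15 regulators of mitochondrial biogenesis and 15 enzymes of the citric acid cycle passed the threshold in any comparison, without or with the block. At the mark of an unadjusted p under 0.05, no block being used, the mean rotenone difference of all probe sets was higher in 4.36% and lower in 3.54%. Beside this, 0 complex I subunits were higher and 3 lower (8.82%), 2 assembly factors higher (7.41%) and 4 lower (14.8%), and 1 regulator higher (6.67%) and 0 lower. Of the ribosomal proteins, 1 was higher (1.35%) and 11 lower (14.9%), and of the citric acid cycle enzymes 0 were higher or lower. In the 11-array fit, with 8.27% of all probe sets higher and 8.12% lower, 0 complex I subunits were higher and 1 lower (2.94%), 3 assembly factors higher and 3 lower (11.1% each), 2 regulators higher (13.3%) and 0 lower, and 3 ribosomal proteins higher (4.05%) and 11 lower (14.9%), again with 0 citric acid cycle enzymes in either direction. Of the 74 mitochondrial ribosomal proteins, Mrpl18 passed in the mean rotenone difference with the block (-0.34 ± 0.08 SE, adjusted p = 0.0430, limma), and Mrpl50 in the mean genotype difference with the block and without WT rotenone replicate 3 (-0.29 ± 0.06 SE, adjusted p = 0.0395, limma). Without the block the median rotenone difference in WT cells was -0.21 for complex I, -0.14 for the ribosomal proteins, -0.09 for the assembly factors, 0.08 for the regulators and 0.02 for the citric acid cycle. In the fit with the block and without WT rotenone replicate 3, these medians were -0.04, 0.02, -0.05, 0.04 and 0.01. The fibroblast markers had a median of 0.06 in the first fit and -0.05 in the second.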

How the data were processed

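RNA of 12 samples was hybridised to Affymetrix arrays, 3 in each of 4 groups. The authors summarised the probes with RMA and deposited log2 values (per the submitters' processing notes), and neither a version nor any setting of RMA is given in the sources used here. RMA as commonly run draws the arrays to a common distribution and compresses differences near background. The values ran from 3.19 to 14.59, no detection calls were used, and precision is limited by how few arrays there are. Of 22690 probe sets, 64 array controls were left out. Every value column belonged to a labelled sample.

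The two-sided tests came from limma 3.58.1 under R 4.3.3 (lmFit, then eBayes), with 4 group means over all 12 arrays, with Benjamini-Hochberg adjustment over 22626 probe sets. The fit was tested on simulated data with independent noise and planted changes larger than any member difference given here. That test does not bear on smaller differences or on arrays that vary together by replicate number. Members, classes, gene lists and tests were chosen with earlier results of these data known. Values on every array are given for the member of each complex with the largest mean rotenone or genotype difference and for alternative isoforms. Lists were complex I subunits, mitochondrial ribosomal proteins, assembly factors, biogenesis regulators, citric acid cycle enzymes, and markers of fibroblasts, muscle, brown fat, leukocytes and germ cells. All 47 member symbols matched RefSeq, and 22 members rest on probe sets whose suffix marks possible matches to several transcripts.

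The replicate number was also fitted as a block. The labels do not say that it marks a shared batch, but the deviations of arrays with the same number from their group means correlated in all 18 pairs (r from 0.289 to 0.829 over genes, against -0.688 to 0.476 for arrays of different number), so equal numbers were treated as pairs. Alternatives left out single arrays or whole replicate numbers, averaged all probe sets of a gene, repeated the quantile normalization, centred each array on its median, left out dim probe sets, or let the variance follow the level. The block without WT rotenone replicate 3, and counts of groups that do not overlap without that array, were added after seeing the data.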

Additional observations from a re-analysis of the deposited data

How the results depend on the processing

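No member passed the threshold under any of 23 alternatives in any of the 7 comparisons, and the lowest adjusted p of a member ranged from 0.148 (replicate number as a block, Atp5md) to 0.820 (without KO rotenone replicate 1, Uqcrh; limma). The replicate block, taken as pairing, changed no member's call. At an unadjusted p under 0.05, the members lower for rotenone in WT cells were 4 without the block and 7 with it. Member medians were taken to have moved where they shifted by more than 0.10, the pooled SD of the member median within groups. The median of KO minus WT in rotenone was 0.11, and -0.016 without replicate 3, with or without the block, 0.013 without WT rotenone replicate 3 and -0.036 without that array with the block. Leaving out single arrays gave 0.013 to 0.19. The median interaction was 0.11, and -0.0145 without replicate 3, with or without the block, and -0.027 without WT rotenone replicate 3 with the block. The median rotenone difference in WT cells was -0.13, and -0.0062 without replicate 3, with or without the block, and -0.0033 without WT rotenone replicate 3 with the block. That 1 array is left out in each of these settings. The other 4 member medians stayed within that SD of their values under all 23 alternatives, but not all kept their sign. The median ranged from -0.080 to 0.040 for KO minus WT in vehicle and from -0.028 to 0.096 for the mean genotype difference. It ranged from -0.079 to 0.016 for rotenone in KO cells, and from -0.133 to -0.0083 for the mean rotenone difference. Of the named genes, Cycs changed sign. Its mean genotype difference was -0.02, and 0.076 and 0.012 with the block without replicates 1 and 2, and leaving out single arrays gave -0.13 to 0.047 (positive values 0.042, 0.029, 0.047, 0.019 and 0.022). Its mean rotenone difference was -0.09, and 0.0051 without replicate 3, with or without the block, and -0.17 to 0.028 when single arrays were left out. The cause was not tested. The other named genes kept their direction under all alternatives run. Of the 26 members with several probe sets, 17 had the same sign of the mean rotenone difference in all of them, and 0 of the 39 further probe sets passed the threshold.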
